A study of Mus musculus with 2 samples.

Results

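The Hedgehog genes of the ovary were examined in prenatally androgenized (PNA) mice, that is the ligands Ihh and Dhh, the receptor Ptch1, the signal transducer Smo, the transcription factors Gli1, Gli2 and Gli3, and the ligand-binding inhibitor Hhip. They were taken as every probe set whose deposited gene symbol equalled 1 of these 8 names, without regard to its signal, which gave 19 of the 45037 probe sets analysed and 8 of 20627 genes. PNA mice were daughters of ICR dams, bought at 6 weeks of age and given subcutaneous injections of 350 µg dihydrotestosterone (DHT, an androgen that cannot be aromatized to estrogen) in sesame oil once a day from day 16 to day 18 of gestation. Controls were daughters of ICR dams of the same age that received the oil alone on the same days. Total RNA of ovaries, 5 in each group, was hybridized to 1 Affymetrix Mouse430_2 array for PNA mice and 1 for controls, on which a gene is read by 1 or more probe sets of short oligonucleotides. DHT was given to the dam, so the exposure was not limited to the ovary, and neither the age of the daughters on the arrays nor the way the 5 ovaries were combined is stated in the sources used here. With 1 array per group there was no replicate check, so no difference below has an error or a p-value, and the number of arrays limits the precision. Whole ovary was measured, so a lower signal from fewer cells of a type and from less RNA per cell cannot be told apart.

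Hedgehog ligands are secreted proteins that bind Ptch1 on a neighbouring cell. Without ligand, Ptch1 keeps Smo inactive; with ligand bound, Smo is released and the Gli proteins turn on target genes, among them Gli1, Ptch1 and Hhip themselves. In the mouse ovary the ligands Ihh and Dhh come from granulosa cells of growing follicles, and the cells that respond are the theca and stromal cells around them, so the signal runs from the inside of the follicle to its wall.

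Because Ptch1 and Hhip are direct targets of Gli proteins, the 250 bases upstream of the RefSeq start site (GRCm38.p6) are shown for both, with those of Ihh, the ligand with the larger ratio in these data. All 3 genes lie on the minus strand, and the sequences run 5′ to 3′ on the strand of the gene. The Ptch1 stretch is chr13:63565736-63565985 and lies inside the annotated extent of Ptch1, upstream of 1 of its start sites. The Hhip stretch is chr8:80058009-80058258 and the Ihh stretch is chr1:74951673-74951922. Capitals mark 1 stretch of 9 bases with the fewest mismatches to the Gli binding consensus on either strand, the first found where several tied.
Ptch1: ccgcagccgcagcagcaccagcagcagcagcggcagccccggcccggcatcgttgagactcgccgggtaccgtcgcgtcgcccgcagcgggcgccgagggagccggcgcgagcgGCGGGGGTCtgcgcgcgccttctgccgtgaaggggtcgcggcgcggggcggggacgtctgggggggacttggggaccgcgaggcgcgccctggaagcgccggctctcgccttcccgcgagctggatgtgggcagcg
Hhip: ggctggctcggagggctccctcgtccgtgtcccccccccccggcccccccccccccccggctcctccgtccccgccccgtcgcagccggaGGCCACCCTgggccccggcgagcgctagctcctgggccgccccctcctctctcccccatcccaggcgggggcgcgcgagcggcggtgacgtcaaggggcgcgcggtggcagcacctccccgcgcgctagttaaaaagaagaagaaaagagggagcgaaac
Ihh: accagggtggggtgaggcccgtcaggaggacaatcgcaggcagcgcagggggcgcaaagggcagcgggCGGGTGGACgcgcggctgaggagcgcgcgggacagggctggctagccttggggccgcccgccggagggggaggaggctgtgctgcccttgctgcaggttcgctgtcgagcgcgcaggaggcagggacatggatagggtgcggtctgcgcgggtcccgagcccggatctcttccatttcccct
The consensus searched was TGGGTGGTC, with its shorter form GGGTGGTC, on both strands and from 250 bases before to 50 bases after the start. Neither form was present in the windows of the 7 members that have one in the RefSeq table (Gli1 was not matched), nor in the 39 windows of other Hedgehog pathway genes. Among all 32851 windows, 0.253% held the 9 bases and 0.807% the 8 bases, so most promoters of this length lacked both. The closest stretch of the 250 upstream bases differed from the consensus at 2 positions in Ihh, Dhh, Smo, Gli2 and Hhip and at 3 positions in Ptch1 and Gli3. A stretch within 2 mismatches was present in 58.3% of all windows, and a stretch within 1 mismatch in 6.74% of all windows and in 0 of the 7. These matches describe the letters of the windows only.

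None of the 8 Hedgehog genes differed by 1.5-fold between PNA and control ovaries when read by its brightest probe set, and the ratios of Ihh and Gli1 lay farthest from 0. Probe set signals are linear intensities, and a log2 ratio is that of the PNA over the control signal, so a positive value means higher in PNA ovaries. A signal was taken as above the floor when it passed the 40th percentile of its array, which was 30.6 on the PNA array and 30.4 on the control array, and a change was called at 1.5-fold, the criterion of the study. Of the 17 member probe sets above the floor on at least 1 array, 1 was higher by at least 1.5-fold in PNA ovaries and 0 were lower, against 3.04% higher and 2.21% lower among all probe sets above the floor. That 1 probe set, for Ptch1, was below the floor in controls. Of the 15 above the floor on both arrays, 0 passed 1.5-fold in either direction, and 6 had a ratio over 0 and 9 a ratio under 0. Taken by the brightest probe set of each gene, 0 of the 8 members were higher and 0 were lower, against 2.47% and 2.16% of the 14082 genes above the floor. These counts lie near the background shares, and nothing is read from them about the members. The median log2 ratio of the 15 was -0.038, against -0.0018 for the 26323 probe sets above the floor on both arrays, whose 5th and 95th percentiles were -0.37 and 0.43.

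**Figure D1:**
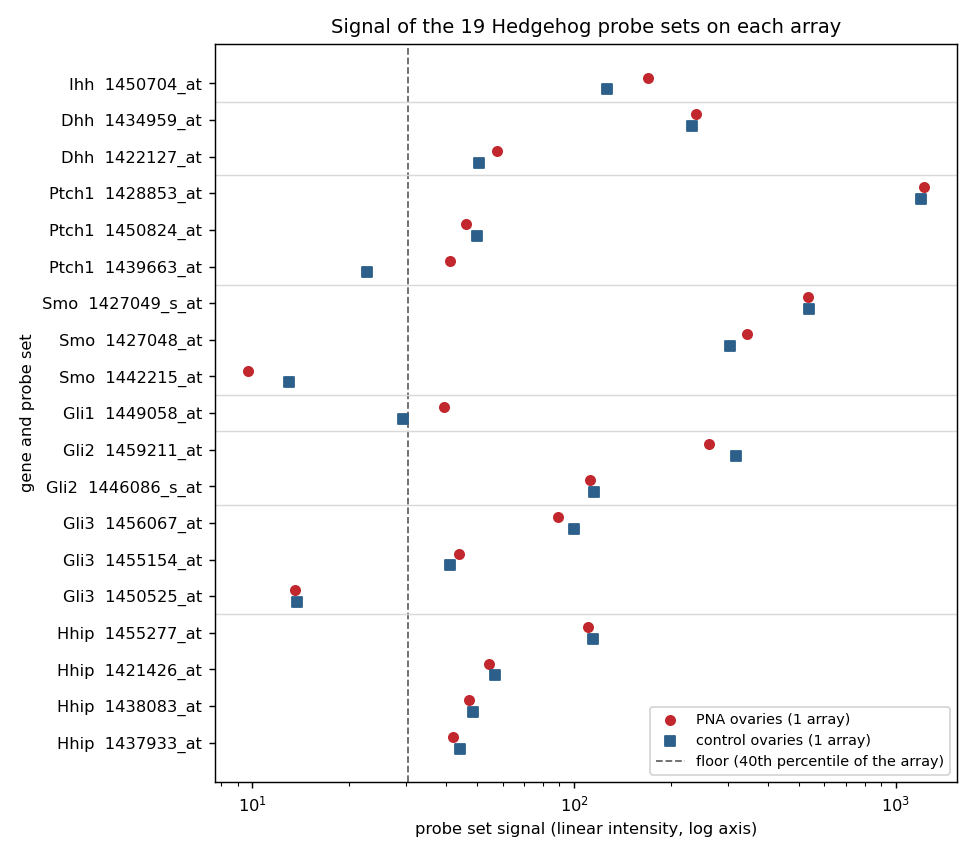
Signal (linear intensity, log axis) of each of the 19 Hedgehog probe sets on the PNA array (red circles) and the control array (blue squares), by gene, with the floor as a dashed line. The 2 symbols lie close together in most rows, and the clearest gaps are at Ihh, Gli1, the dim Ptch1 probe set 1439663_at and the dim Smo probe set 1442215_at, the last below the floor on both arrays.

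Ihh, Indian hedgehog, is measured by 1 probe set, 1450704_at, which is aligned over the whole gene at chr1:74945056-74951843 (positions as deposited, which match the GRCm38.p6 gene). Its signal was 169.6 in PNA ovaries and 127 in control ovaries. The log2 ratio was 0.42, or 1.34-fold higher in PNA ovaries, which did not reach 1.5-fold. Both signals were well over the floor, and this was the largest ratio among the 15 member probe sets above the floor on both arrays. In the tenth of all probe sets with a mean signal like that of Ihh, 3.77% were at least 1.5-fold higher in PNA ovaries and the SD of the log2 ratio over probe sets was 0.34, so the Ihh ratio lay little more than 1 such SD from 0. At a threshold of 1.3-fold, chosen after the values were seen, 2 of the 8 members by brightest probe set were higher as measured, Ihh and Gli1, and 0 were lower, against 6.01% and 4.94% of genes. The Gli1 count rests on a control signal below the floor, and its bound of 1.29-fold does not reach 1.3-fold.

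Dhh, desert hedgehog, is the other granulosa ligand and is also made by Sertoli cells of the testis and by Schwann cells of nerves. Its brighter probe set, 1434959_at (chr15:98893028-98893939), had a signal of 239 in PNA ovaries and 233 in control ovaries, a log2 ratio of 0.035. The dimmer probe set, 1422127_at, had 57.7 in PNA ovaries and 50.7 in control ovaries, a log2 ratio of 0.19. Both ratios lay over 0 and neither passed 1.5-fold, so the 2 ligand genes had the same sign without a called change. Of 7 Schwann cell markers, S100b, a calcium-binding protein of glia and other cells, fell, with 76.6 in PNA ovaries and 248 in control ovaries and a log2 ratio of -1.69. Sox10, a defining transcription factor of Schwann cells, had 47.5 in PNA ovaries and 52.0 in control ovaries. The summed signal of the Schwann list was 1830.0 in PNA ovaries and 1993 in control ovaries, and its part in the Dhh values was not tested.

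Ptch1 is both the receptor and a target gene, and its 3 probe sets did not give 1 answer. Probe set 1428853_at, which lies at the 3′ end of the gene (chr13:63508162-63511113), had a signal of 1221 in PNA ovaries and 1195 in control ovaries. Its log2 ratio was 0.031. Probe set 1450824_at had 46.2 in PNA ovaries and 49.8 in control ovaries, a log2 ratio of -0.11. Probe set 1439663_at had 41.1 in PNA ovaries and 22.6 in control ovaries. The control signal was below the floor, so the bound against the floor was 1.35-fold higher in PNA ovaries, and the ratio as measured was 1.82-fold. This probe set lies inside the gene at chr13:63537461-63538309, 29.1 kb from its 3′ end, and whether that stretch is exonic or intronic was not determined here. In the tenth of probe sets with a like mean signal, 2.22% were at least 1.5-fold higher. Over the 2 Ptch1 probe sets above the floor on both arrays, the log2 ratio ran from -0.11 to 0.031.

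Smo is the membrane protein that Ptch1 holds inactive. Probe sets 1427049_s_at and 1427048_at are aligned to the same stretch at the 3′ end of the gene (chr6:29755287-29761360). The first had 535 in PNA ovaries and 536 in control ovaries, and the second had 345 in PNA ovaries and 304 in control ovaries. Their log2 ratios were -0.0019 and 0.18, so 1 reading of this stretch was near 0 and the other lay over 0, with neither past 1.5-fold. The remaining probe set, 1442215_at, had 9.73 in PNA ovaries and 13.0 in control ovaries, below the floor on both arrays, and gives no direction.

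Gli1, the activating factor whose own transcription is a widely used readout of the pathway, was dim. Its single probe set, 1449058_at (chr10:127329881-127341589), had a signal of 39.3 in PNA ovaries and 29.4 in control ovaries. The control value was just below the floor. The bound against the floor was 1.29-fold higher in PNA ovaries and the ratio as measured was 1.34-fold, and neither reached 1.5-fold. The protein-coding gene Arhgap9 overlaps Gli1 in the RefSeq annotation.

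Gli2 is the main activator of the response and Gli3 acts mostly as its repressor. Gli2 probe sets 1459211_at and 1446086_s_at share 1 alignment (chr1:118834133-118834843). The first had 263 in PNA ovaries and 318 in control ovaries, a log2 ratio of -0.27, and the second had 112 in PNA ovaries and 116 in control ovaries, a log2 ratio of -0.047. Neither passed 1.5-fold, and both ratios were under 0, whereas the Gli1 ratio was over 0. For Gli3, probe set 1456067_at (chr13:15726898-15729637) had 89.2 in PNA ovaries and 99.98 in control ovaries, a log2 ratio of -0.16. Probe set 1455154_at, which overlaps the same 3′ end, had 43.8 in PNA ovaries and 41.1 in control ovaries, a log2 ratio of 0.092. The signs of Gli3 therefore disagreed between probe sets, though the signals of 1455154_at lay near the floor. The remaining probe set, 1450525_at, with 13.5 in PNA ovaries and 13.8 in control ovaries, was below the floor on both arrays.

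Hhip binds Hedgehog ligands at the cell surface and so limits their reach. Its brightest probe set, 1455277_at, at the 3′ end of the gene (chr8:79965851-79966898), had 110.5 in PNA ovaries and 114 in control ovaries. Probe set 1421426_at had 54.3 in PNA ovaries and 56.7 in control ovaries. Probe set 1438083_at had 47.3 in PNA ovaries and 48.6 in control ovaries, and 1437933_at had 41.9 in PNA ovaries and 44.3 in control ovaries. All 4 log2 ratios lay between -0.079 and -0.038, so the 4 probe sets differed by only 0.041 and none came near 1.5-fold. Of the 3 target genes among the members, Hhip lay within 1.06-fold on each probe set and Ptch1 near 0 at its bright probe set. Ptch1 1439663_at and Gli1 had bounds against the floor of 1.35-fold and 1.29-fold higher in PNA ovaries. The SD of the log2 ratio over probe sets of like signal was 0.28 for 1439663_at and 0.32 for Gli1. With 1 array per group, these values do not establish a difference among the 3 genes.

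**Figure D2:**
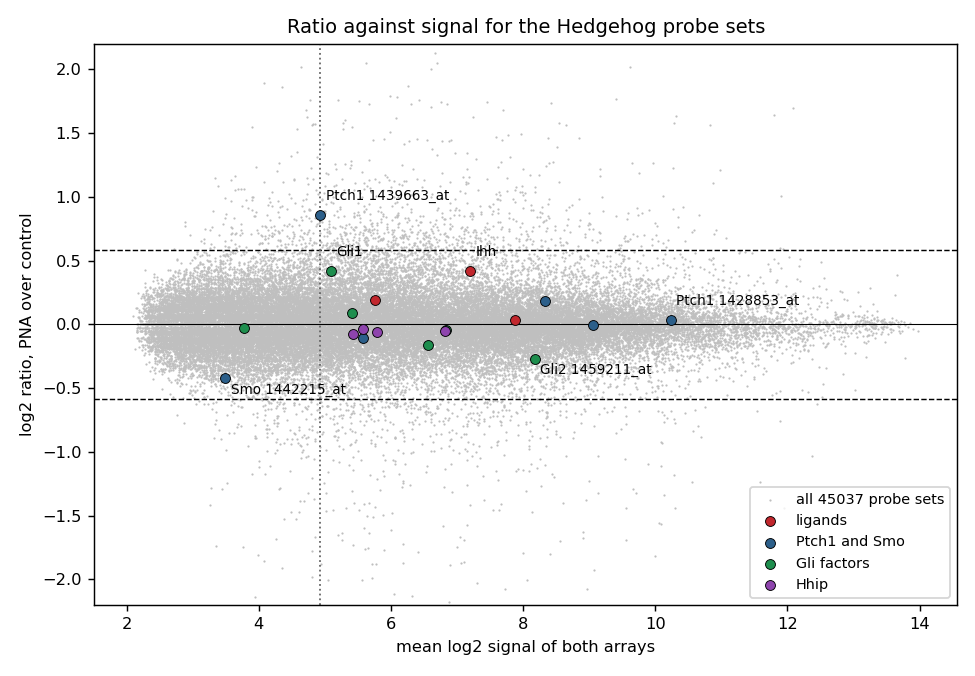
Log2 ratio of PNA over control against the mean log2 signal of both arrays for all 45037 probe sets (grey) and the Hedgehog probe sets (coloured by role), with dashed lines at 1.5-fold and a dotted line at the floor. The members lie within the body of the grey cloud except for Ptch1 1439663_at, which sits at the floor, and 40 grey probe sets lie beyond the plotted range.

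Beyond expression, the deposited annotation places Ptch1, Smo, Gli1, Gli2 and Gli3 in the primary cilium, the antenna-like organelle in which vertebrate cells carry out Hedgehog signalling. Ihh, Dhh, Ptch1 and Hhip are assigned to the extracellular region, and the 3 Gli proteins to the nucleus. RefSeq genes overlap 5 of the 8 members, a pseudogene at Smo, a non-coding RNA at Gli3 and at Hhip, a non-coding RNA and a miRNA at Gli2, and Arhgap9 at Gli1. Whether the probes of these members read the overlapping genes was not tested.

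Of 45 further pathway genes on the array, 41 were above the floor on at least 1 array, of which 0 were higher by at least 1.5-fold and 1 was lower, against 2.47% and 2.16% of all genes above the floor. These counts lie near those shares, and the median log2 ratio of the 41 was 0.0037, against -0.0066 for all genes above the floor. Of the 10 genes for ligand modification and release, 8 were above the floor and none passed. Shh, sonic hedgehog, the other mammalian ligand, was below the floor on both arrays, with 24.1 in PNA ovaries and 22.9 in control ovaries. All 5 genes that act with Ptch1 at the cell surface were above the floor on 1 or both arrays, and none passed. Lrp2, an endocytic receptor that binds Hedgehog ligand, had 36.4 in PNA ovaries and 24.95 in control ovaries, which was below the floor. Against the floor, Lrp2 had a bound of 1.20-fold higher in PNA ovaries. Its other 2 probe sets were below the floor on both arrays. The co-receptor Gas1 had 1401 in PNA ovaries and 1318 in control ovaries, and Boc had 136 in PNA ovaries and 121 in control ovaries. The third co-receptor, Cdon, had 257 in PNA ovaries and 316.5 in control ovaries, a log2 ratio of -0.30. By the brightest probe set the co-receptors therefore did not share a sign. Nor did the 3 probe sets of Gas1, with log2 ratios from -0.21 to 0.088.

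Among 20 genes that carry the signal from Smo to the Gli proteins, 19 were above the floor, 1 was lower and 0 were higher. The 1 that fell was Stk36, the vertebrate relative of the fly Hedgehog pathway kinase Fused, which in mice is needed for motile cilia rather than for Hedgehog signalling. Its brightest probe set had 29.3 in PNA ovaries, below the floor, and 53.0 in control ovaries. The bound against the floor was 1.73-fold lower in PNA ovaries, and the other Stk36 probe set had a log2 ratio of -0.47. Sufu, the protein that holds Gli factors in check, had 175 in PNA ovaries and 183 in control ovaries. Of 13 reported Gli target genes in mouse tissues other than the members, 12 were above the floor and 0 passed in either direction, with a median log2 ratio of 0.031 over the 12. Gas1, Boc and Cdon stand in this list too. The list does not record whether the pathway raises or lowers each gene, so its median is not read as pathway output. Nr2f2, a nuclear receptor of theca and stromal cells, had 1129.8 in PNA ovaries and 1011 in control ovaries, a log2 ratio of 0.16. Over its 6 probe sets the log2 ratio ran from -0.14 to 0.27.

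**Figure D3:**
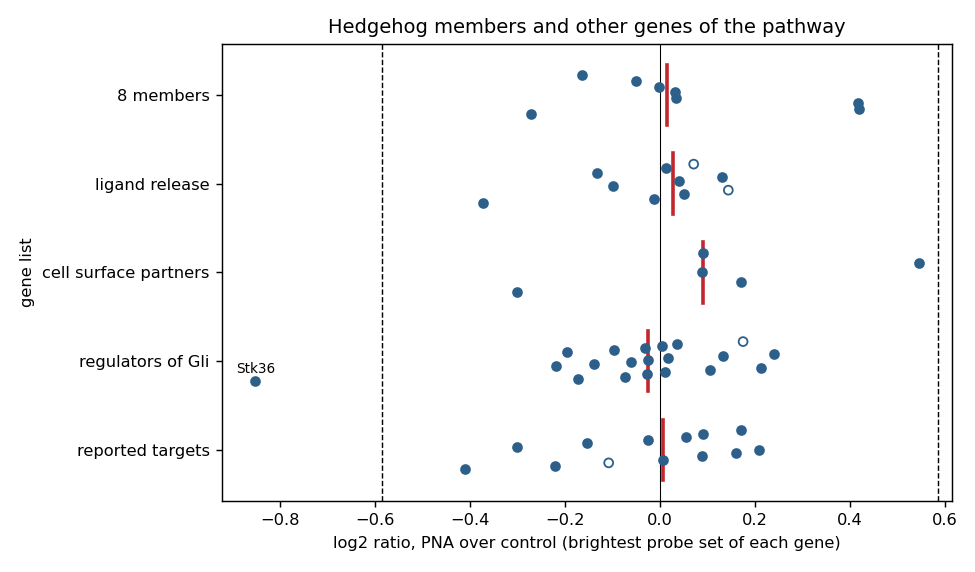
Log2 ratio of PNA over control for each gene, by its brightest probe set, in the 8 members and 4 lists of other pathway genes, with the median of each list as a red bar, 1.5-fold as dashed lines and genes below the floor on both arrays as open circles. Stk36 is the only gene past 1.5-fold, and the medians of the 5 rows lie between -0.026 and 0.092.

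The cells that send and receive the signal were compared through marker lists, since the member signals are those of a mixture. All 14 granulosa markers were above the floor. Cyp19a1, the aromatase, rose, with 1578 in PNA ovaries and 388 in control ovaries, as did Amh, the hormone of small growing follicles, with 199 in PNA ovaries and 119 in control ovaries, and Grem1, a BMP antagonist, with 678 in PNA ovaries and 392 in control ovaries. The other granulosa markers did not pass 1.5-fold, the median log2 ratio of the list was -0.056, and its summed signal in PNA ovaries was 102% of that in controls. Of the 12 oocyte markers, all were above the floor and 0 passed 1.5-fold, with a median log2 ratio of 0.21. Gdf9 and Bmp15, the oocyte factors that promote Hedgehog ligand expression in mouse granulosa cells, had log2 ratios of 0.22 and 0.34, with signals of 894 and 177 in PNA ovaries and 767 and 140.0 in control ovaries. The 3 probe sets of Bmp15 did not share a sign, with log2 ratios from -0.097 to 0.34. The part of Gdf9 and Bmp15 in the Ihh value was not tested.

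On the receiving side, 1 of the 6 steroid-making theca markers measured was higher by 1.5-fold and 1 was lower, by the brightest probe set. Cyp17a1, the enzyme that makes androgens in theca cells, rose, with 5448 in PNA ovaries and 2709 in control ovaries. Lhcgr, the LH receptor, fell, with 458 in PNA ovaries and 1246 in control ovaries, and the summed signal of the list in PNA ovaries was 99.8% of that in controls. Lhcgr stands in the corpus luteum list too, as does the brighter Star, with 9805 in PNA ovaries and 9093 in control ovaries. Neither the Lhcgr value nor that sum can therefore be assigned to theca cells alone. By the brightest probe set, markers of theca progenitors and stroma had a log2 ratio over 0 in 7 of 8, with a median of 0.29 and 0 past 1.5-fold. Their summed signal was 13285 in PNA ovaries and 10579 in control ovaries. Probe sets of the same gene were not always alike in this list. The log2 ratios of Tcf21 ran from -0.62 to 0.38 and those of Dcn from 0.48 to 1.11, so each has a probe set past 1.5-fold. Smooth muscle markers, which include genes of the muscle-like outer theca, had a ratio under 0 in 7 of 8, with a median of -0.35. Of these, Synpo2, an actin-bundling protein, fell, with 67.0 in PNA ovaries and 104 in control ovaries. This rests on 1 probe set, since the other 3 of Synpo2 were below the floor on both arrays. The summed signal of the smooth muscle list was 6292 in PNA ovaries and 7496 in control ovaries. The log2 ratios of 0.031 for Ptch1 and -0.051 for Hhip, each by its brightest probe set, stood beside stromal markers summing to 126% of controls and smooth muscle markers summing to 83.9%. The part of cell composition in the Hedgehog values was not tested.

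**Figure D4:**
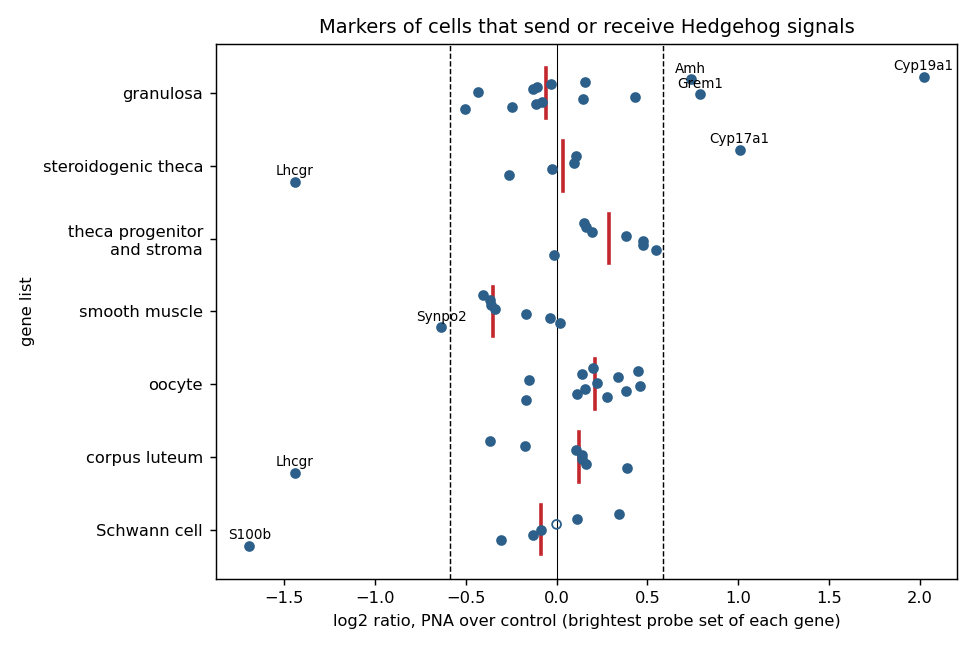
Log2 ratio of PNA over control for each marker gene, by its brightest probe set, in lists of cells that make or receive Hedgehog ligands or neighbour them, with the median of each list as a red bar, 1.5-fold as dashed lines and genes below the floor on both arrays as open circles. The theca progenitor and stroma median (0.29) and the oocyte median (0.21) lie over 0, the smooth muscle median (-0.35) lies under 0, and the named genes are those past 1.5-fold.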

How the data were processed

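Ovarian RNA was extracted with Trizol and hybridized as biotinylated cRNA to 1 Affymetrix Mouse430_2 array per group. The labels also mention fixation of ovaries in Bouin's solution and collection on diestrus, without saying whether either applies to the arrays. The authors deposited a linear signal intensity per probe set and a table of log2 values, which are centred within each probe set. Which software summarised and normalized the probes was not given in the sources used here. Log2 ratios of the 2 tables differed by at most 2.0e-06, so both carry the same normalization. The deposited fold changes, the tables of differential genes and their counts, and the biological process terms were not used here.

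Log2 ratios of the linear signals were computed with Python 3.11.15, pandas 2.3.3 and numpy 2.4.6, leaving out 64 control probe sets of the manufacturer. Arrays have no sequencing depth, and the median signal was 49.5 on the PNA array and 48.7 on the control array. Genes with several probe sets were represented by the brightest, by mean log2 signal. A signal below the floor on 1 array was given as a bound against that floor, and no direction was given for a signal below it on both. With 1 array per group no test could be run. The genes named were the 8 members with every probe set, each listed gene past 1.5-fold with a signal above the floor on either array, and Shh, Sufu, Boc, Cdon, Gas1, Nr2f2, Gdf9, Bmp15, Cyp17a1 and Lhcgr whatever their values. Sox10, Ovgp1 and Foxj1, which define their cell types, Lrp2, Star, and Tcf21, Dcn and Upk1b for their other probe sets, were added to these once their values were known. 1 more gene that the rule names is not reported here. The members and lists were chosen with earlier results of these data known. The deposited alignments name no build in the files, but 97.5% of 34754 probe sets of a single gene, and all 19 of the members, overlapped their own gene in RefSeq GRCm38.p6. Alternatives were median scaling, quantile normalization, loess removal of an intensity trend (fraction 0.3, statsmodels 0.14.6), an offset of 50, other floors, 2-fold, the series values and the mean over probe sets. The steps were tested on simulated data, and figures were drawn with matplotlib 3.10.9.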

Additional observations from a re-analysis of the deposited data

How the results depend on the processing

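No paired analysis was possible because each group has 1 array. The 1 Ptch1 probe set counted as higher was still counted after median scaling, quantile normalization, loess, without a floor and in the series values. The count of member probe sets higher in PNA ovaries became 0 with 50 added to both signals, with the floor at the 60th percentile, at 2-fold, with the mean over all probe sets of each gene, and with dim signals raised to the floor, and it became 3 at 1.3-fold, of which 1 was above the floor on both arrays. The last 2 settings were chosen after seeing the data. The share of all probe sets past 1.3-fold is not given here, so nothing is read from the count of 3. The count of member probe sets lower in PNA ovaries was 0 in all settings run. Of the other pathway genes, the count lower became 0 with 50 added, with the floor at the 60th percentile and at 2-fold. At 1.3-fold 2 were lower and 1 was higher, against 4.94% and 6.01% of all genes above the floor, and nothing is read from these counts. No called value changed sign. Ptch1 1439663_at had a log2 ratio of 0.33 with 50 added and 0.43 with dim signals raised to the floor, and between 0.33 and 0.86 over the 6 settings. Over 7 settings, the log2 ratio lay between 0.31 and 0.43 for Ihh, 0.17 and 0.42 for Gli1, -0.29 and -0.16 for Gli2, and -0.082 and 0.0077 for Smo, whose sign was therefore not settled. As the mean over its probe sets, Ptch1 had a log2 ratio of 0.26 and Gli3 of -0.034. The offset shrinks ratios of dim probe sets by construction. The 1439663_at ratio of 1.82-fold as measured is under 2-fold, and the higher floor left this dim probe set out. Raising dim signals to the floor replaced its control signal of 22.6 with 30.4. The mean over Ptch1 probe sets averaged its log2 ratio of 0.86 with 0.031 and -0.11. Any further cause of the shifts was not tested. Signal near the floor limits what can be said of Gli1, of the 2 dimmer Ptch1 probe sets, of Gli3 1455154_at and of the 3 dimmer Hhip probe sets.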

Other observations

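By the brightest probe set, the ovarian surface epithelium and mesothelial markers had a log2 ratio over 0 in all 7. Of these, 3 were past 1.5-fold, against 2.47% of all genes above the floor that were higher. The log2 ratios of Upk1b ran from 0.13 to 0.95 over its probe sets, so it too has a probe set past 1.5-fold. Krt19 and Krt7, keratins of simple epithelia, had 266 and 79.4 in PNA ovaries, against 145 and 51.9 in control ovaries, and Lgals7, a galectin of epithelia, had 159 in PNA ovaries and 103 in control ovaries. The summed signal of the list was 1248 in PNA ovaries and 848 in control ovaries. All 8 leukocyte markers above the floor had a ratio over 0, with 0 past 1.5-fold and a median of 0.34. Endothelial markers had 0 of 8 past 1.5-fold and a median of -0.20, and corpus luteum markers had 1 of 8 lower, Lhcgr, and a median of 0.12. Of 7 oviduct and motile cilia markers, 5 were below the floor on both arrays, including Ovgp1, the oviduct glycoprotein, and Foxj1, the regulator of motile cilia, and of 6 skeletal muscle markers 4 were above the floor and 0 passed 1.5-fold.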
